A study of Mus musculus with 18 samples.

Results

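The effect of tumour necrosis factor (TNF) on differentiating mouse astrocytes was examined at 72 h by comparing 3 TNF-treated libraries with 3 untreated libraries, which are 6 of the 18 libraries of the series. The members were chosen by their labels alone (treatment and time), and every gene in the table entered the comparison. Both groups started from neurospheres (NSPs), free-floating cultures of neural stem cells taken from the ventricular zone of wild-type C57BL/6J brains at embryonic day 14, and both were plated on poly-L-ornithine and kept for 72 h in DMEM with 10% fetal bovine serum. The treated group also received TNF at 50 ng/ml, and the untreated group received none. The other 12 libraries were NSPs, untreated and TNF-treated cells at 24 h and untreated cells at 1 week, with 3 libraries in each of the 6 conditions. The labels number the replicates 1 to 3 and do not say whether they came from separate animals or cultures, so the p-values measure the spread between these libraries, which may be partly technical. The study describes its data, where nothing else is stated, as coming from 3 or more independent experiments. It does not say this of the sequenced libraries in particular. Serum was present in both groups, no group at 72 h was differentiated without it, and the cultures were not sorted for astrocytes.

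TNF binds the receptors TNFR1 and TNFR2, and adaptor proteins at the receptor activate the IKK kinases. These kinases mark the inhibitor IκBα for destruction, which frees NF-κB dimers to enter the nucleus and bind promoters of chemokine, adhesion, complement and antigen presentation genes. Several of the induced genes encode inhibitors of NF-κB itself, so that the pathway limits its own activity. Astrocytes exposed to inflammatory cytokines are known to become reactive. Astrocytes are commonly identified by the intermediate filament protein GFAP, whose level varies among them, and by their glutamate transporters, gap junctions and glycogen store.

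Total counts in the 6 libraries ranged from 12598024 to 19106651. The TNF library of replicate 1 stood apart from the other 5: mitochondrial genes held 8.01% of its counts against 2.43% to 3.67% in the others, and its correlation with the other TNF libraries over 20067 genes (Pearson's r of 0.9749 and 0.9761 on log2 CPM) was below that between those libraries (0.9899). At 24 h the TNF library of replicate 1 also had the highest mitochondrial share, 6.24% against 3.48% and 2.65% in the other TNF libraries. The untreated 24 h libraries held 2.87% to 5.02%. These 24 h libraries enter the 24 h effect and its difference from the 72 h effect. For many named calls that were lost without the 72 h TNF library of replicate 1, the value without it is given. A call printed without such a value may also depend on that library. Of the 9 astrocyte markers all were detected, and their summed level was 5912 to 8329 CPM (a count relative to its library total, after TMM scaling of the totals) without TNF and 3617 to 5148 CPM with it. The sum does not stand for every marker. In the test described below *Gfap*, *Aldoc* and *S100b* fell and the other 6 did not pass. The largest change was that of *Gfap* (-2.31 on the log2 scale). Of the other cell types, microglia and macrophage markers summed to 40.0 to 62.0 CPM without TNF and 51.4 to 55.6 CPM with it, with 6 of 12, *Ptprc*, *Itgam*, *Trem2* and *Tmem119* among them, at no more than 3 counts in each of the 6 libraries. Endothelial markers summed to 7.95 to 9.82 CPM and 13.4 to 17 CPM, with *Cdh5*, *Cldn5*, *Tie1* and *Erg* at no more than 3 counts in each library, and mural and fibroblast markers to 30.7 to 47.2 CPM and 43.8 to 72.1 CPM, with 5 of 11 at no more than 3 counts. Neuronal markers summed to 1579 to 1632 CPM and 1479 to 1667 CPM, oligodendrocyte lineage markers to 445 to 590 CPM and 337 to 403 CPM, ependymal markers to 241 to 338 CPM and 214 to 284 CPM, and choroid plexus markers to 19.3 to 29.6 CPM and 8.73 to 16.2 CPM. In bulk RNA, fewer cells of a type and less RNA per cell cannot be told apart.

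TNF changed the level of 1919 of 20067 tested genes at 72 h, of which 873 rose and 1046 fell. Here a gene is called changed where the adjusted p-value (edgeR's quasi-likelihood test, Benjamini-Hochberg adjustment over all tested genes) was under 0.05, which is 9.56% of the tested genes, 4.35% higher and 5.21% lower. The median change was 1.13 on the log2 scale among the genes that rose and -0.92 among those that fell, and the median over all tested genes was -0.01. The libraries of both groups did not overlap for 1881 of the 1919 called genes, while 26.2% of all tested genes showed no overlap. A log2 change of at least 1 was reached by 987 of them (4.92% of those tested), 512 higher (2.55%) and 475 lower (2.37%). Without the TNF library of replicate 1 the count was 1371 (6.83%; 659 or 3.28% higher and 712 or 3.55% lower), of which 1184 were among the 1919. Leaving out the untreated library of replicate 2 gave 982 genes, leaving out that of replicate 3 gave 1050, and leaving out that of replicate 1 gave 2849. In each of the 6 fits that left out 1 library, 835 of the 1919 genes kept their call, 389 higher and 446 lower.

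**Figure D1:**
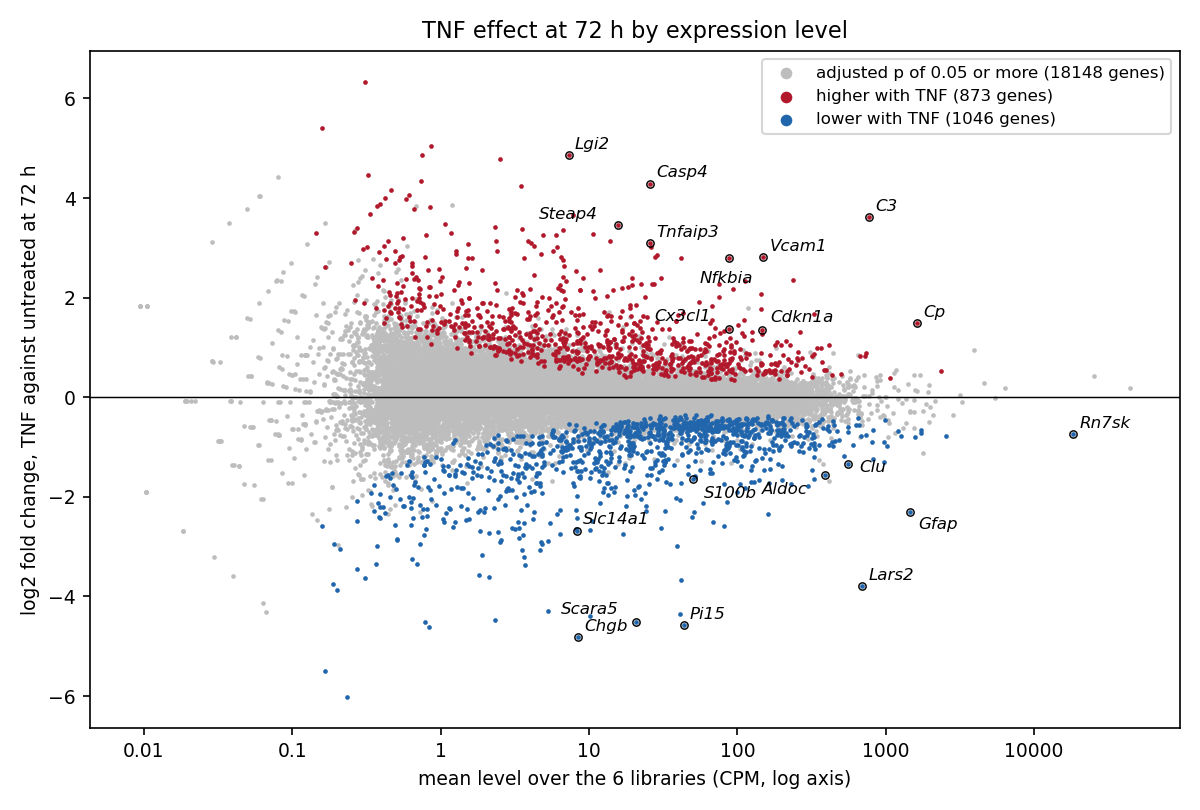
Each point is 1 gene, with its mean level over the 6 libraries in CPM on a log axis and its log2 fold change with TNF at 72 h; 2 genes at 0 in all 6 libraries are not drawn. Red marks the 873 genes that rose, blue the 1046 that fell and grey the rest, with *C3* and *Cp* the named risers at high level and *Gfap* and *Rn7sk* among those that fell there.

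Genes coding for proteins made up 1547 of the called genes, with 601 that rose and 946 that fell. Of 1643 tested transcripts that the annotation lists as still to be experimentally checked (TEC), 112 rose and 15 fell. Antisense transcripts showed 50 that rose and 23 that fell of 1278 tested, and sense intronic transcripts 15 and 1 of 213. These classes were not tested against each other, and over all tested genes 4.35% rose and 5.21% fell. Whether reads were assigned by strand is not given in the sources used here, so reads of a gene and of its antisense partner may not have been separated.

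Most of the called genes for NF-κB subunits and inhibitors were inhibitors. Of 15 tested genes for NF-κB subunits and inhibitors 7 rose and none fell (46.7%, beside 4.35% of all tested genes that rose), with a median change of 0.72, and 7 or 8 rose in each fit that left out 1 library. *Nfkbia* (ENSMUSG00000021025; chr12:55489410-55492647, GRCm38) encodes IκBα, the inhibitor that holds NF-κB in the cytoplasm. *Nfkbia* was at 16, 23.3 and 26.6 CPM in the untreated libraries and at 156, 146 and 158 CPM with TNF. All 3 TNF libraries lay far above all untreated ones and close to each other, and the change was 2.80 ± 0.17 (SE) on the log2 scale (adjusted p = 1.2e-08), or 6.96-fold.

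*Tnfaip3*, which encodes the ubiquitin-editing enzyme A20 that switches the pathway off, was at 5.30, 5.28 and 5.50 CPM without TNF and at 27.6, 52.5 and 57.3 CPM with it (3.09 ± 0.22, adjusted p = 7.82e-08). The untreated values were almost the same in the 3 libraries, and the lowest TNF value was that of replicate 1. *Nfkbie*, another IκB gene, was at 5.75, 6.87 and 7.48 CPM without TNF and at 25.5, 32.9 and 38.6 CPM with TNF (2.26 ± 0.20, adjusted p = 1.2e-06). *Tnip1*, which encodes a partner of A20, rose by 1.18 ± 0.17 on the log2 scale (adjusted p = 0.000165), from a mean of 13.8 to 31.3 CPM. *Nfkbiz*, an atypical IκB that acts in the nucleus, rose by 0.72 ± 0.17 (adjusted p = 0.00997), but without the TNF library of replicate 1 its change was 0.47 (adjusted p = 0.063).

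Among the subunits, those of the alternative arm of the pathway rose. *Relb* was at 6.58, 8.71 and 7.59 CPM without TNF and 38.4, 33.0 and 40.4 CPM with it (2.28 ± 0.22, adjusted p = 2.62e-06). *Nfkb2* rose by 1.18 ± 0.16 (adjusted p = 0.000111). *Nfkb1* and *Rela*, the subunits of the classical dimer, differed by 0.14 ± 0.10 and -0.03 ± 0.15 (adjusted p = 0.417 and 0.93), with TNF values that overlapped the untreated ones.

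The promoters of these genes are shown because they hold the letters that NF-κB is known to bind. Promoter windows of RefSeq (GRCm38.p6), each 300 bases long from 250 bases before to 50 bases after a transcription start, were searched on both strands for GGG, any 3 bases and TTCC (GGAA, any 3 bases and CCC on the other strand). Of the NF-κB list, 5 of the 5 genes that rose and have a window held a match, and so did 3 of the 7 tested genes that were not called and have a window. These counts are per gene, over any of its windows. Of the 11888 tested genes with a window 7.04% held the motif, and of all 32851 windows 5.56% did. The bases that precede the gene start are printed 5′ to 3′ on the strand of the gene, with the matches in capitals:
Nfkbia (chr12:55492648-55492897, minus strand): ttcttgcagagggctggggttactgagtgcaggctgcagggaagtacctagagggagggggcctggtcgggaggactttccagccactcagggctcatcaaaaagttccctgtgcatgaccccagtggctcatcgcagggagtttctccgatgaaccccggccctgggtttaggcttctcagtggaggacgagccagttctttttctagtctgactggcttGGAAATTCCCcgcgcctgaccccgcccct
Nfkbie (chr17:45555450-45555699, plus strand): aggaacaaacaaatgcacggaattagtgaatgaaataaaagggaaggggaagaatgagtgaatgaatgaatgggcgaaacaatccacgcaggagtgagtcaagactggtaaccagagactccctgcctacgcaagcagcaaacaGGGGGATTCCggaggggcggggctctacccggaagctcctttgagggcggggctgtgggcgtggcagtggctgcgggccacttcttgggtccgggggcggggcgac
Tnip1 (chr11:54962941-54963190, minus strand): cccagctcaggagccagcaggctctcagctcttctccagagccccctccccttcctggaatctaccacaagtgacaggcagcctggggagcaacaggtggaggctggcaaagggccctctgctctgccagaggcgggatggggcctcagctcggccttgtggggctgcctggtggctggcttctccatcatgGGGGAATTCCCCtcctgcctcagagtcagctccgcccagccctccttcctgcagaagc
Cxcl10 (chr5:92348890-92349139, minus strand): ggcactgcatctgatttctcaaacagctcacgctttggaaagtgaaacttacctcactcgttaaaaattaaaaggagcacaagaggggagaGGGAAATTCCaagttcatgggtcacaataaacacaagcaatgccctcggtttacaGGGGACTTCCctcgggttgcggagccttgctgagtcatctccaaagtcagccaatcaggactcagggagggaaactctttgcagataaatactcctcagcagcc
Casp4 (chr9:5308599-5308827, plus strand): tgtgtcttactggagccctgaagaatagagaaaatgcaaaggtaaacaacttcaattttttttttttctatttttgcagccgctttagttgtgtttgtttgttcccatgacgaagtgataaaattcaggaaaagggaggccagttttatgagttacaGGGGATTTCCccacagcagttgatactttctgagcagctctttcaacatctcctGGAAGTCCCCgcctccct
H2-Q4 (chr17:35379367-35379616, plus strand): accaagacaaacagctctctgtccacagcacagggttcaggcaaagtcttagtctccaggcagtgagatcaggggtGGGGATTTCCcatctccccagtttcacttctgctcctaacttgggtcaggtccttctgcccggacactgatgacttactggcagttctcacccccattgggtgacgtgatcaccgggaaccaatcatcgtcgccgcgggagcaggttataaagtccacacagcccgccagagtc

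The match in *Nfkbia* began 29 bases before the start of transcription and that in *Nfkbie* 106 bases before it. *Tnip1* held 2 matches that overlapped by 8 bases on opposite strands, *Cxcl10* held 2 separate matches 159 and 104 bases before the start, and *Casp4* held 2, 93 and 39 bases before it. All distances are counted to the transcription start of the RefSeq window. For *Casp4* the printed stretch of 229 bases stops short of that start, where the GENCODE gene begins. Over the whole comparison, 55 of 502 genes that rose and have a window held the motif (10.96%), as did 47 of 775 that fell (6.06%) and 837 of 11888 tested (7.04%). Among genes that rose by at least 1 on the log2 scale the share was 14.5% (39 of 269), and among those that fell by at least 1 it was 7.03% (23 of 327). For genes with a single window the shares were 8.04% of those that rose, 5.08% of those that fell and 6.02% of those tested. The interferon response type motif (GAAA, any 2 bases and GAAA, or TTTC, any 2 bases and TTTC on the other strand) was found in 3.59% of the genes that rose, 4.0% of those that fell and 3.52% of those tested. These matches are letters in a window and were not tested as binding sites.

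Of 25 tested genes for TNF receptors and the proteins next to them 2 rose and none fell (8.0%, near the 9.56% called over all tested genes; median change -0.03). *Traf2*, an adaptor that joins TNFR1 to the kinases, rose by 1.08 ± 0.12 (adjusted p = 1.21e-05), and *Traf3*, an adaptor that restrains the alternative arm, by 0.69 ± 0.18 (adjusted p = 0.0167), which passed in 4 of the 6 fits that left out 1 library. *Tnfrsf1a*, the gene for TNFR1, was at 43.4, 49.3 and 46.5 CPM without TNF and 95.8, 45.4 and 50.4 CPM with it (0.46 ± 0.21, adjusted p = 0.182). The TNF library of replicate 1 lay far above the untreated range, and the other TNF libraries were close to it. *Tnfrsf1b*, the gene for TNFR2, and *Tnf* itself had 0 counts in all 6 libraries, which for each library allows up to 3 counts.

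Among the chemokine genes that rose, *Cx3cl1* had the highest level. Of 9 tested chemokine genes 4 rose and none fell (44.4%, beside 4.35% of all tested genes that rose; median 0.64), and 3 to 5 rose when 1 library was left out. *Cx3cl1*, the membrane-bound chemokine that acts on microglia, was at 44.4, 50.1 and 52.5 CPM without TNF and 94.1, 132 and 155 CPM with it (1.37 ± 0.26, adjusted p = 0.00163). *Cxcl10*, which attracts T cells, was at 2.04, 2.45 and 2.92 CPM and at 5.35, 14.6 and 12.8 CPM (2.13 ± 0.39, adjusted p = 0.00129), and *Ccl2*, which attracts monocytes, was at 0.832, 1.23 and 2.04 CPM and at 3.94, 3.77 and 4.38 CPM (1.53 ± 0.34, adjusted p = 0.00611). In none of these genes did the groups overlap. *Ccl7* passed the test as well (2.12 ± 0.63, adjusted p = 0.0404) but stayed under 1 CPM, and it passed in 1 of the 6 fits that left out 1 library. It did not pass without the TNF library of replicate 1 (1.89). The other 19 listed chemokines, *Ccl5*, *Cxcl1* and *Cxcl2* among them, had too few reads to be tested.

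Of 10 tested cytokine genes *Csf1* and *Tslp* rose and none fell (20%, beside 4.35% of all tested genes that rose), and 1 or 2 rose when 1 library was left out. *Csf1*, the growth factor of macrophages and microglia, was at 158, 159 and 168 CPM without TNF and at 223, 225 and 246 CPM with it (0.52 ± 0.10, adjusted p = 0.00285). *Tslp* went from a mean of 0.377 to 2.67 CPM (2.80 ± 0.69, adjusted p = 0.0134) and passed in 4 of the 6 fits that left out 1 library (0.0572 without the TNF library of replicate 1). *Il6* reached no more than 4 counts in any of the 6 libraries and was not tested. *Vcam1*, the adhesion molecule that binds leukocytes, was at 33.6, 35.9 and 42.5 CPM without TNF and 178, 328 and 281 CPM with TNF, a 7.02-fold difference (2.81 ± 0.22, adjusted p = 2.95e-07). Of 11 tested adhesion genes 3 rose (*Vcam1*, *Madcam1* and *Itgav*) and 2 fell (*Jam2* and *Jam3*), with a median of 0.77 (45.5% called, beside 9.56% of all tested genes). *Vcam1* and *Itgav* passed in each of the 6 fits that left out 1 library, *Jam3* in 3, *Jam2* in 2 and *Madcam1* in 1. Without the TNF library of replicate 1 the same 3 rose, none fell (adjusted p = 0.0875 for *Jam2* and 0.158 for *Jam3*) and the median was 0.34. *Icam1* had at most 1 count in each library.

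Complement genes moved in both directions. The largest was *C3* (ENSMUSG00000024164; chr17:57203970-57228136), the central complement component, at 104, 128 and 117 CPM without TNF and at 1525, 1363 and 1380 CPM with it. This is a 12.2-fold difference (3.61 ± 0.49, adjusted p = 8.24e-05), and the libraries within each group differed little. *C1s1* and *C1ra*, which encode the proteases of the first complement complex, rose by 1.62 ± 0.30 and 1.09 ± 0.29 (adjusted p = 0.00153 and 0.0226), and *C1ra* passed in 4 of the 6 fits that left out 1 library (0.113 without the TNF library of replicate 1). *Clu* and *Cd59a*, both known as complement inhibitors, fell. *Clu* was at 655, 859 and 895 CPM without TNF and at 243, 344 and 367 CPM with it (-1.34 ± 0.19, adjusted p = 0.000112). *Cd59a* was at 16.6, 17.2 and 24.0 CPM and at 2.82, 9.0 and 7.76 CPM (-1.57 ± 0.28, adjusted p = 0.00104), lowest in replicate 1. Of 12 tested complement genes 3 rose and 2 fell (41.7% called, beside 9.56% of all tested genes; median 0.05), and without the TNF library of replicate 1 it was 2 and 3 with a median of -0.31.

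**Figure D2:**
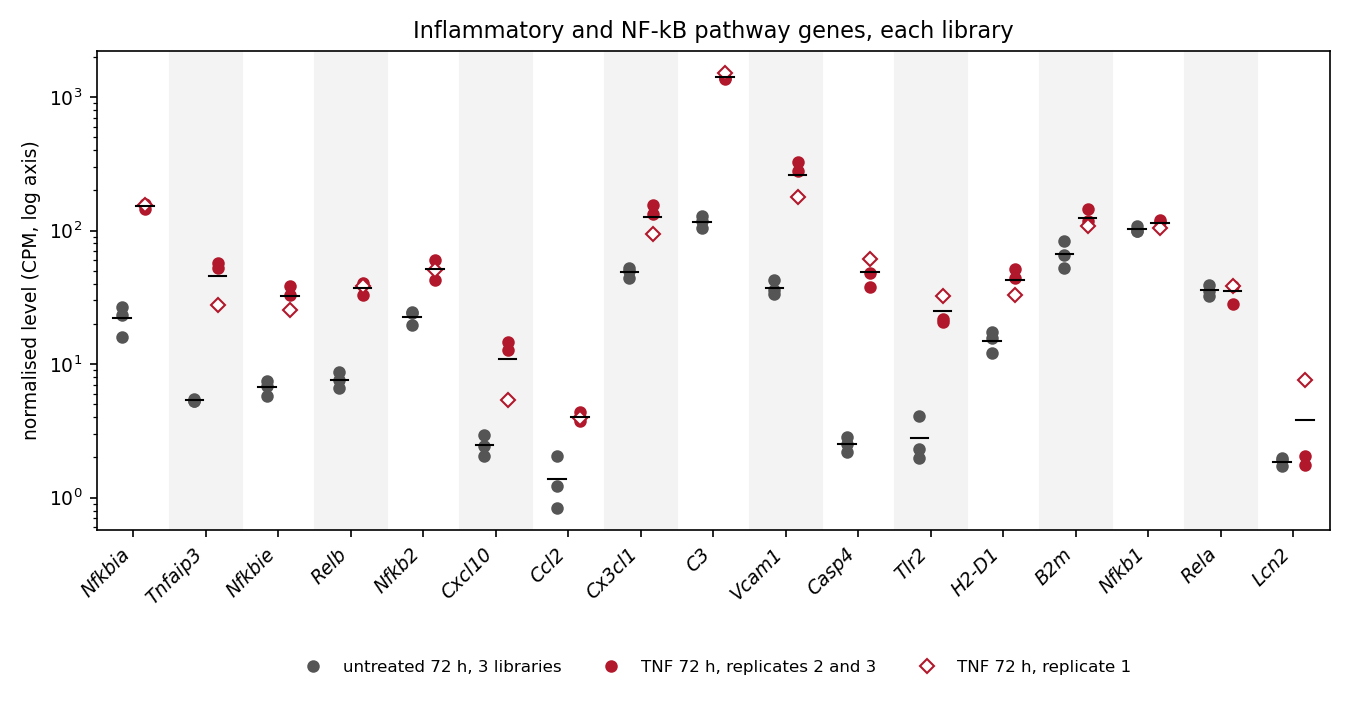
Normalised levels in CPM, on a log axis, of 17 genes in each of the 6 libraries at 72 h, with grey circles for the untreated libraries, red circles for TNF replicates 2 and 3, open diamonds for TNF replicate 1 and black bars for group means. *Nfkbia* and *C3* rise with little spread, *Nfkb1* and *Rela* overlap between the groups, and *Lcn2* is raised in 1 TNF library.

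Of 18 tested genes of MHC class I antigen presentation 7 rose, none fell and 11 did not pass (38.9%, beside 4.35% of all tested genes that rose; median 0.36), and 6 or 7 rose when 1 library was left out. *H2-Q4* was at 3.10, 4.42 and 4.24 CPM without TNF and at 14.4, 16 and 21.3 CPM with it (2.13 ± 0.24, adjusted p = 1.35e-05). The classical heavy chain genes *H2-D1* and *H2-K1* rose by 1.52 ± 0.24 and 1.38 ± 0.33 (adjusted p = 0.00039 and 0.0115), and their common light chain *B2m* went from 52.1, 65.2 and 83.3 CPM to 109, 145 and 117 CPM (0.89 ± 0.17, adjusted p = 0.00202). The peptide transporters *Tap1* and *Tap2* and the immunoproteasome subunit *Psmb9* rose by 1.20, 0.93 and 1.97, and *Tap2* passed in 3 of the 6 fits that left out 1 library. Reads of the similar *H2* genes may have been split between them in counting. *H2-T23*, *Tapbp* and *Nlrc5*, the activator of the class I genes, did not pass the test, with changes of -0.46, -0.05 and -0.02.

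Of 28 tested interferon-stimulated genes 6 rose and *Irf9* fell (25% called, beside 9.56% of all tested genes; median 0.40). When 1 library was left out 4 or 5 rose, and *Irf9* passed in 1 of the 6 fits (-0.38, adjusted p = 0.144, without the TNF library of replicate 1). *Irf1*, a transcription factor known to respond to both interferon and NF-κB, was at 12.5, 15.1 and 16.8 CPM without TNF and at 36.1, 39.1 and 40.4 CPM with it (1.38 ± 0.17, adjusted p = 4.32e-05). *Ddx58*, the sensor RIG-I, was at 27.7, 29.7 and 30.4 CPM and at 42.1, 58.8 and 51.3 CPM. *Irf8*, *Ifitm3*, *Mx2* and *Xaf1* passed the test at low levels, with means of 1.62, 2.34, 2.10 and 1.97 CPM with TNF, and *Xaf1* passed in none of the 6 fits that left out 1 library. *Mx2* passed in 2 of these 6 fits (adjusted p = 0.252 without the TNF library of replicate 1). *Isg15* and *Ifit3* differed by 0.16 and 0.04 and did not pass.

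The gp130 and STAT3 axis, through which interleukin 6 family cytokines act, showed 2 of 18 tested genes higher and 1 lower (16.7% called, beside 9.56% of all tested genes; median 0.11), and 1 and 0 without the TNF library of replicate 1. *Cebpd*, a transcription factor of the acute phase, was at 18.5, 21.2 and 20.9 CPM without TNF and at 83.4, 49.1 and 63.4 CPM with it (1.69 ± 0.18, adjusted p = 9.2e-06). *Sbno2* (0.76 ± 0.23, adjusted p = 0.0461) passed in 1 of the 6 fits that left out 1 library (adjusted p = 0.337 without the TNF library of replicate 1), and its groups overlapped. *Socs2* fell from a mean of 18.5 to 10.2 CPM (-0.86 ± 0.23, adjusted p = 0.0255), and passed in 2 of these 6 fits (-0.86, adjusted p = 0.0572, without the TNF library of replicate 1). *Osmr* and *Cebpb* did not pass (0.83 ± 0.28 and 0.13 ± 0.28, adjusted p = 0.0656 and 0.819), nor did *Stat3* (-0.17 ± 0.12).

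Markers of reactive astrocytes did not move as a block. Of 13 pan-reactive markers tested *Steap4*, *Cxcl10* and *Cp* rose and *Gfap* fell (30.8% called, beside 9.56% of all tested genes; median 0.81). Without the TNF library of replicate 1 it was 3 higher and 3 lower, with a median of 0.16. *Steap4*, a metalloreductase, was at 1.74, 3.01 and 3.03 CPM without TNF and at 18.7, 36.4 and 31.5 CPM with it (3.46 ± 0.62, adjusted p = 0.00146). *Cp*, which encodes the copper-binding ferroxidase ceruloplasmin, went from 795, 819 and 955 CPM to 2090, 2798 and 2335 CPM (1.49 ± 0.18, adjusted p = 2.22e-05). *Lcn2* was at 1.97, 1.90 and 1.71 CPM without TNF and at 7.66, 1.74 and 2.06 CPM with it (1.05 ± 0.54, adjusted p = 0.24), with replicate 1 far above the untreated range and the other TNF libraries close to it. *Serpina3n* was also highest in replicate 1, at 11.3, 13.3 and 10.2 CPM against 22.3, 4.93 and 3.5 CPM (-0.18 ± 0.48, adjusted p = 0.856), and without replicate 1 its change was -1.45 (adjusted p = 0.0182). *Vim*, a further filament gene, was at 2653, 3095 and 3611 CPM and at 2676, 3321 and 3615 CPM.

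Of 9 tested markers given to A1 reactive astrocytes *C3* and *H2-D1* rose and *Ggta1* fell (33.3% called, beside 9.56% of all tested genes; median 0.05), and of 9 given to A2 reactive astrocytes *Cd109* and *B3gnt5* rose and *Tm4sf1* fell (33.3% called, median 0.58). Without the TNF library of replicate 1 the A1 and A2 medians were -0.34 and -0.16. *Cd109* and *B3gnt5* each passed in 2 of the 6 fits that left out 1 library, and *B3gnt5* did not pass with RLE scaling (0.60), with the replicate block (0.61) or with only the groups compared (0.64). Both calls were lost without the TNF library of replicate 1 (0.45, edgeR adjusted p = 0.253, for *Cd109* and 0.54 for *B3gnt5*). In that fit 0 of the A2 markers rose and 1 fell. *Ggta1*, an enzyme of glycan synthesis, was at 3.71, 7.30 and 5.83 CPM without TNF and at 0.845, 1.16 and 0.938 CPM with it (-2.51 ± 0.40, adjusted p = 0.00042).

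Of 38 tested genes of the mature astrocyte 15 fell and *Glul* alone passed as higher (42.1% called, beside 9.56% of all tested genes), and the median was -0.84. Leaving out 1 library at a time gave 11 to 17 genes that fell and medians from -0.99 to -0.68, with 17 and -0.99 without the TNF library of replicate 1. *Gfap* (ENSMUSG00000020932; chr11:102887336-102900912), the filament gene that marks astrocytes, was at 1855, 3172 and 2270 CPM without TNF and at 1022, 217 and 229 CPM with it (-2.31 ± 0.56, adjusted p = 0.0128). The groups did not overlap, but replicate 1 of the TNF group lay well above the other TNF libraries. Without this library the change was -3.44 (adjusted p = 0.000498). Without the untreated library of replicate 2, or the TNF library of replicate 2 or 3, it was -2.08, -1.94 and -1.97 with adjusted p = 0.0577, 0.0652 and 0.0582.

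*Aldoc*, the brain form of aldolase, was at 444, 621 and 679 CPM without TNF and at 213, 184 and 190 CPM with it (-1.57 ± 0.18, adjusted p = 1.31e-05). *S100b*, which encodes a calcium-binding protein, was at 53.9, 90.1 and 84.0 CPM and at 29.2, 23.9 and 20.3 CPM (-1.64 ± 0.19, adjusted p = 1.66e-05). In both genes all TNF libraries, replicate 1 included, lay below all untreated ones. *Slc14a1*, a urea transporter, was at 12.2, 16.8 and 13.8 CPM without TNF and at 3.32, 1.80 and 1.5 CPM with it, 6.42-fold lower (-2.68 ± 0.38, adjusted p = 0.000138). *Id4*, a repressor of neurogenic factors, fell by 1.34 on the log2 scale, *Ttyh1* by 1.19, *Acsl6* by 1.05, *Slc39a12* by 0.98, *F3* by 0.88, *Bcan* by 0.85 and *Mlc1* by 0.66, and the groups did not overlap for any of them. *Bcan* passed in 4 of the 6 fits that left out 1 library and *Mlc1* in 2 (-0.44, adjusted p = 0.158, without the TNF library of replicate 1).

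Several defining astrocyte genes did not pass. The glutamate transporter *Slc1a3* was at 1861, 2287 and 2460 CPM without TNF and at 1676, 2399 and 2170 CPM with it (-0.08 ± 0.17, adjusted p = 0.799). The other main glutamate transporter *Slc1a2* differed by 0.31 ± 0.22 and *Sox9* by -0.07 ± 0.35. The water channel *Aqp4* was at 665, 996 and 954 CPM and at 922, 556 and 458 CPM (-0.43 ± 0.38, adjusted p = 0.507). *Gja1*, the gap junction gene connexin 43, was at 445, 604 and 569 CPM and at 383, 138 and 116 CPM (-1.35 ± 0.55, adjusted p = 0.132), and without the TNF library of replicate 1 it passed at -2.08 (adjusted p = 0.0387). *Glul*, the glutamine synthetase gene, rose from 272, 328 and 368 CPM to 395, 506 and 505 CPM (0.54 ± 0.14, adjusted p = 0.0178), and did not pass without the untreated library of replicate 2 (0.55) or the TNF library of replicate 3 (0.48).

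**Figure D3:**
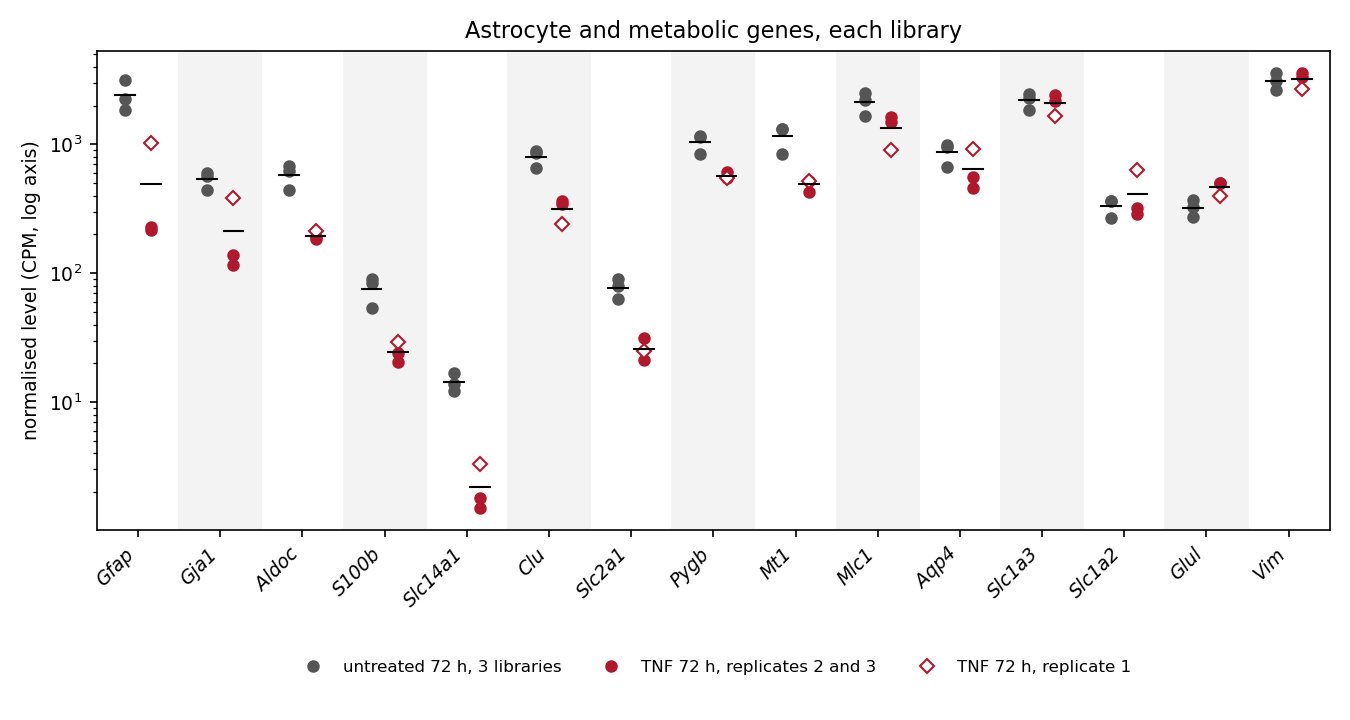
Normalised levels in CPM, on a log axis, of 15 astrocyte and metabolic genes in each of the 6 libraries at 72 h, with symbols for untreated libraries (grey), TNF replicates 2 and 3 (red), TNF replicate 1 (open diamond) and group means (black bars). *Aldoc*, *S100b* and *Slc2a1* fall in all 3 TNF libraries, *Gfap* and *Gja1* are lowest in TNF replicates 2 and 3, and *Slc1a3* and *Vim* overlap.

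Of 22 tested genes of glucose uptake and glycogen 9 fell and none rose (40.9%, beside 5.21% of all tested genes that fell; median -0.49), and 6 to 11 fell when 1 library was left out. *Slc2a1*, the glucose transporter GLUT1, was at 63.4, 79.3 and 89.7 CPM without TNF and at 24.9, 21.1 and 31.4 CPM with it (-1.59 ± 0.17, adjusted p = 5.39e-06). *Slc16a1*, the lactate transporter MCT1, fell by 0.95 on the log2 scale (adjusted p = 0.00132). *Pygb*, the brain glycogen phosphorylase that breaks glycogen down, was at 842, 1137 and 1171 CPM and at 548, 544 and 608 CPM (-0.89 ± 0.21, adjusted p = 0.00991), and passed in 4 of the 6 fits that left out 1 library. *Ppp1r3c*, which targets a phosphatase to glycogen and favours its storage, was at 130, 174 and 194 CPM and at 104, 69.2 and 62.9 CPM (-1.08 ± 0.22, adjusted p = 0.00308). Thus genes of both glycogen breakdown and glycogen storage were lower, while *Gys1*, the glycogen synthase gene, and *Ugp2* did not pass (0.02 and -0.56, adjusted p = 0.0548 for *Ugp2*).

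The oestrogen receptor gene *Esr1*, also on this list, was at 9.76, 9.02 and 9.19 CPM without TNF and at 1.07, 1.97 and 1.81 CPM with it (-2.52 ± 0.24, adjusted p = 2.71e-06). *Pid1* fell from 138, 145 and 149 CPM to 62.8, 77.3 and 75.6 CPM (-1.0 ± 0.14, adjusted p = 0.00015), and *Gpld1*, a phospholipase gene counted with the mature astrocyte genes, from 58.3, 74.5 and 70.1 CPM to 21.7, 27.9 and 28.5 CPM (-1.38 ± 0.18, adjusted p = 6.66e-05). Some members (*Esr1*, *Pid1*, *Ppp1r3c*, *Pygb*, *Ugp2* and *Upk3b*) were chosen on these libraries, so their direction is no independent evidence for the list. Among 23 tested genes named in earlier work on these libraries 4 rose and 8 fell (52.2% called, beside 9.56% of all tested genes), with 2 to 5 and 6 to 9 when 1 library was left out.

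Of 10 tested metallothionein and zinc transport genes 5 fell, 1 rose and 4 did not pass (60.0% called, beside 9.56% of all tested genes; median -0.46), and 3 to 5 fell when 1 library was left out. *Mt1*, which encodes a metal-binding protein, was at 843, 1313 and 1315 CPM without TNF and at 523, 431 and 522 CPM with it (-1.23 ± 0.29, adjusted p = 0.00945). *Mt2* and *Mt3* fell by 0.90 and 0.89, and the zinc exporter *Slc30a1* by 1.38 (adjusted p = 0.00015). *Slc39a4*, a zinc importer, was at 0.454, 0.859 and 0.991 CPM and at 3.72, 6.44 and 10.9 CPM (3.14 ± 0.41, adjusted p = 5.56e-05). *Mt2* and the exporter *Slc30a10* each passed in 1 of the 6 fits that left out 1 library (adjusted p = 0.127 and 0.119 without the TNF library of replicate 1).

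Several matrix genes were highest in the TNF library of replicate 1. *Col6a1* and *Col6a2*, chains of collagen VI, were at 103 and 18.9 CPM in the TNF library of replicate 1, at 23.9 to 25.1 and 2.96 to 3.19 CPM in the other TNF libraries, and at 4.62 to 8.41 and 0.770 to 1.47 CPM without TNF. Their changes were 2.86 ± 0.45 and 2.87 ± 0.56 (adjusted p = 0.000333 and 0.00236), and 1.82 and 1.43 without that library (adjusted p = 0.000259 and 0.00554). *Ltbp1*, which binds latent TGF-β, showed the same uneven increase (25.6, 4.70 and 4.88 CPM with TNF and 1.54 to 1.89 CPM without; 2.76 ± 0.51, 1.47 without replicate 1). Of 25 tested collagens, laminins and relatives 3 rose and 1 fell (16% called, beside 9.56% of all tested genes; median 0.20), and of 26 TGF-β and BMP genes 3 rose and 2 fell (19.2% called, median -0.07).

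Of 19 tested proteases of the matrix and their inhibitors 6 fell and *Adamts4* rose (36.8% called, beside 9.56% of all tested genes). Their median was -0.07 and lay between -0.13 and 0.15 when 1 library was left out. *Plau*, the urokinase gene, was at 11, 14.4 and 15 CPM without TNF and at 4.0, 2.38 and 1.94 CPM with it (-2.27 ± 0.28, adjusted p = 3.2e-05). *Timp2* and *Timp3*, inhibitors of metalloproteases, fell by 0.80 and 0.82 (adjusted p = 0.00175 and 0.000283). *Adamts4* passed in 1 of the 6 fits that left out 1 library (adjusted p = 0.102 without the TNF library of replicate 1).

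Of 30 tested cell cycle genes *Cdkn1a* and *Ccnd1* rose and none fell (6.67% called, beside 9.56% of all tested genes; median 0.05). *Ccnd1*, a cyclin of the G1 phase, passed in 1 of the 6 fits that left out 1 library. *Cdkn1a*, the cell cycle inhibitor p21, was at 77.2, 88.1 and 81.5 CPM without TNF and at 312, 146 and 173 CPM with it (1.35 ± 0.25, adjusted p = 0.00133; 0.96 and 0.00712 without replicate 1). *Mki67*, a marker of dividing cells, was at 1.44, 1.35 and 1.38 CPM and at 10.0, 1.62 and 1.75 CPM (1.70 ± 0.56, adjusted p = 0.0616), and without replicate 1 the change was 0.29 (adjusted p = 0.733). Of 21 stem and progenitor genes *Olig2* and *Nr2e1* rose and *Hes1*, a target of Notch, fell (14.3% called, beside 9.56% of all tested genes; median 0.04). *Nr2e1* passed in 2 of the 6 fits that left out 1 library (adjusted p = 0.0658 without the TNF library of replicate 1). *Hes1* did not pass without the untreated library of replicate 3 (-1.34) or with only the groups compared (-1.41). *Olig2* was at 21, 21.2 and 18.4 CPM and at 27.5, 39.1 and 44.7 CPM (0.88 ± 0.19, adjusted p = 0.00629).

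Of 16 tested death effectors 4 rose and none fell (25%, beside 4.35% of all tested genes that rose; median 0.36), and 2 to 4 rose when 1 library was left out. *Casp4*, the caspase that senses lipopolysaccharide in the cytosol, was at 2.5, 2.82 and 2.20 CPM without TNF and at 61.6, 47.8 and 37.5 CPM with it, a 19.5-fold difference (4.29 ± 0.33, adjusted p = 2.12e-07). *Bid* rose by 1.28 (adjusted p = 0.000996), *Pmaip1* by 1.65 (adjusted p = 0.142 without the TNF library of replicate 1) and *Casp12* by 0.58, and the latter pair each passed in 3 of the 6 fits that left out 1 library. Of 22 motile cilium genes 3 fell and none rose (13.6%, beside 5.21% of all tested genes that fell; median -0.50), and 1 to 3 fell when 1 library was left out, with 1 and a median of -0.36 without the TNF library of replicate 1. Of 6 tested ependymal markers 2 fell, *Hdc* (-1.28) among them (33.3%, beside the same 5.21%; median -0.58). Without that library none did (median -0.39). The part of ependymal cells in the cilium list was not tested. Of 16 contractile genes *Mylk* fell (6.25%, near the same 5.21%), and it did not pass without the TNF library of replicate 2. Of 20 NRF2 antioxidant genes *Gstm1* rose and *Cat* fell (10.0%, near the 9.56% of all tested genes). *Cat* passed in 2 of the 6 fits that left out 1 library, and 0 to 4 of the 20 fell in these fits. None of 25 sterol and fatty acid synthesis genes passed in edgeR's test, although 23 of them had a change below 0 (median -0.34). For this list 6 genes had an unadjusted p-value under 0.05, and DESeq2 called 2 lower.

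**Figure D4:**
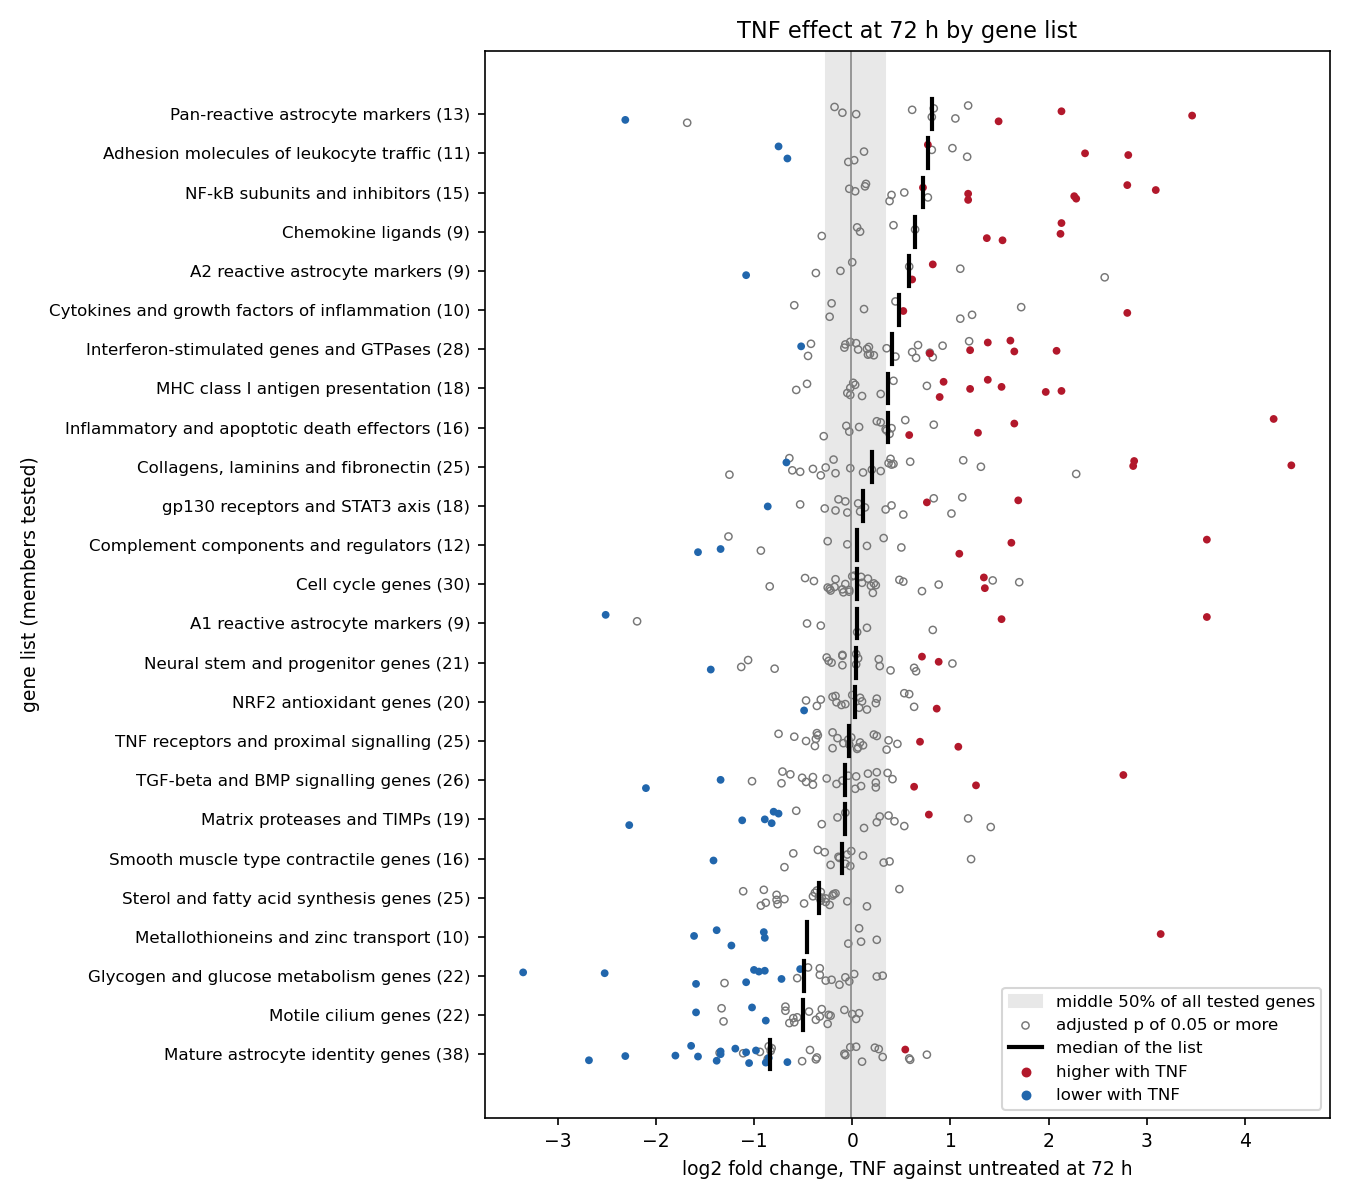
Each row is 1 of 25 gene lists with the number of members tested, and each point is 1 member by its log2 fold change with TNF at 72 h, red where it rose, blue where it fell and open where the adjusted p-value was 0.05 or more. Black bars are list medians and the grey band holds the middle 50% of all tested genes (-0.27 to 0.33): the medians of 9 lists lie to the right of the band (pan-reactive, adhesion, NF-κB, chemokine, A2, cytokine, interferon, MHC class I and death effector lists) and those of 5 to the left (mature astrocyte, cilium, glycogen, zinc and sterol lists).

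Of 5 tested endothelial markers *Vwf* rose (2.81 ± 0.24, adjusted p = 5.96e-07) and *Kdr* fell (-2.27 ± 0.46, adjusted p = 0.00318). *Vwf* was at 1.51, 2.02 and 1.32 CPM and at 9.35, 12.1 and 12.9 CPM, while *Cdh5*, *Cldn5*, *Tie1* and *Erg* stayed at or under 3 counts. Of 8 tested oligodendrocyte lineage markers *Cspg4* and *Olig2* rose and *Cnp* fell, and the change of *Cspg4* was 2.02, or 1.08 without the TNF library of replicate 1. Of 7 tested neuronal markers *Gad1* rose (1.40) and *Rbfox3* fell (-1.86, adjusted p = 0.0714 without that library), and of 3 tested choroid plexus markers *Folr1* fell (-1.62). None of 4 tested microglia and macrophage markers and none of 4 mural and fibroblast markers passed in edgeR's test. At an unadjusted p-value under 0.05 there were 1 and 2, and DESeq2 called 0 and 1. The shares called were 40%, 37.5%, 28.6% and 33.3% of the endothelial, oligodendrocyte, neuronal and choroid plexus markers tested, beside 9.56% of all tested genes, each over few genes. The part of these cell types in the changes of other lists was not tested.

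The largest increases among protein-coding genes with a mean of at least 1 CPM included several genes of low level without TNF. *Lgi2*, a secreted protein of the synapse, was at 0.303, 0.368 and 0.715 CPM without TNF and at 8.79, 18.2 and 15.4 CPM with it, a 29.1-fold difference (4.86 ± 0.43, adjusted p = 9.11e-07). *Adamts20*, a matrix protease, was at 0.563 CPM in the TNF library of replicate 1 and at 6.73 and 7.20 CPM in the others, against 0.0614 to 0.275 CPM without TNF (4.79 ± 0.80, adjusted p = 0.000615). *Crb1*, a cell polarity gene, was at 1.36, 1.04 and 1.05 CPM and at 5.80, 19.2 and 18.4 CPM (3.66 ± 0.41, adjusted p = 1.39e-05). In these 3 genes replicate 1 was the lowest of the TNF libraries and still above the untreated ones.

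*Tlr2*, the receptor for bacterial lipoproteins, was at 1.97, 2.33 and 4.07 CPM and at 32.4, 21.8 and 20.5 CPM (3.13 ± 0.41, adjusted p = 5.42e-05). *Stx11*, a protein of vesicle fusion, rose by 3.41, *Paqr5*, a membrane receptor of progesterone, by 3.37, *Clec2g* by 3.48 and *Trdn* by 3.14. *Nupr1* and *Rapgef5* rose by 3.09 and 3.35, with replicate 1 at 15.4 and 27.7 CPM against 3.08 to 3.19 and 3.69 to 5.22 CPM in the other TNF libraries. Without that library their changes were 1.88 and 1.91 (adjusted p = 0.045 and 0.00137). The smallest p-value of all genes, named after its values were seen, belonged to *Reep1*, which shapes the endoplasmic reticulum. *Reep1* was at 69.2, 79.6 and 82.1 CPM without TNF and at 393, 413 and 382 CPM with it (2.36 ± 0.12, adjusted p = 8.83e-10).

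The largest decreases, chosen by the same rule, included genes of secretion and of cell surface receptors. *Scara5*, a ferritin receptor, was at 35.2, 47.2 and 37.3 CPM without TNF and at 1.92, 1.33 and 2.00 CPM with it, 22.7-fold lower (-4.51 ± 0.25, adjusted p = 2.72e-09). *Chgb*, a protein of secretory granules, was at 12.0, 20.9 and 15.7 CPM and at 0.507, 0.812 and 0.375 CPM, 28.2-fold lower (-4.82 ± 0.36, adjusted p = 1.41e-07). *Pi15*, a protease inhibitor gene, was at 73.1, 83.6 and 93.6 CPM and at 1.24, 5.16 and 4.19 CPM (-4.57 ± 0.41, adjusted p = 9.79e-07). In these 3 genes every TNF library lay far below every untreated one.

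*Glycam1*, a mucin-like gene, fell by 4.40 on the log2 scale, *Elobl* by 4.36, *Myh8*, a myosin heavy chain, by 4.29, *Pth2r*, a peptide hormone receptor, by 3.60 and *Igsf1* by 3.56. *Gabbr2*, a subunit of the GABA-B receptor, fell from 6.05, 8.47 and 5.12 CPM to 0.732, 0.754 and 0.626 CPM (-3.20 ± 0.44, adjusted p = 9.89e-05), and *Ppp1r1b*, the phosphatase inhibitor DARPP, by 3.37. *Rftn1*, *Tmem266*, *Ucma* and *Got1l1* fell by 3.17, 3.07, 2.98 and 2.95. *Lars2*, the mitochondrial leucyl-tRNA synthetase gene, was at 1125, 512 and 2252 CPM without TNF and at 103, 101 and 77.0 CPM with it (-3.79 ± 0.60, adjusted p = 0.000381). Its untreated values were widely spread, and the ribosomal RNA gene *CT010467.1* was at 1065, 325 and 503 CPM in the same libraries and at 357, 112 and 118 CPM with TNF (-1.69 ± 0.60, adjusted p = 0.0875). The part of ribosomal RNA reads in the count of *Lars2* was not tested.

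Among the most abundant called genes the changes were smaller. After *C3* and *Cp*, the risers of highest level were *Dst* (a cytoskeletal linker, 0.53 ± 0.13), *Kif1b* (a kinesin motor, 0.38 ± 0.11), *Trp53inp1* and *Ccng1* (both known targets of p53, 0.89 ± 0.14 and 0.82 ± 0.17), *Cd109*, *Exoc4*, *Lnpep* and *Cdc42bpa*. *Cdc42bpa*, a kinase of the cytoskeleton, was at 287, 272 and 252 CPM without TNF and at 550, 578 and 541 CPM with it (1.04 ± 0.10, adjusted p = 2.93e-06). Its groups lay far apart, with little spread within each.

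*Rn7sk*, the noncoding RNA that holds the elongation factor P-TEFb inactive, was the most abundant gene that fell, at 17347, 26389 and 25101 CPM without TNF and at 13103, 13867 and 14249 CPM with it (-0.74 ± 0.18, adjusted p = 0.0144). The membrane glycoprotein gene *Gpm6b* fell by 0.77, the lysosomal *Psap* by 0.71, *Arhgap5* by 0.79, *Prdx6* by 0.78, *Sparc* by 0.67 and *Csnk1a1* by 0.46. Several of these calls were lost in some of the fits that left out 1 library. Of the 6 fits that left out 1 library *Kif1b*, *Lnpep*, *Cd109*, *Arhgap5* and *Csnk1a1* passed in 2, *Dst* and *Sparc* in 3 and *Rn7sk* in 4. Among the calls lost without the TNF library of replicate 1 were *Cd109* (0.45), *Dst* (0.44), *Arhgap5* (-0.67) and *Csnk1a1* (-0.4).

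The same contrast at 24 h, between libraries that share no sample with those at 72 h, called 703 genes (3.5% of those tested), 438 higher (2.18%) and 265 lower (1.32%). Without any 1 of the untreated 24 h libraries the count was 363, so the shares that follow rest on each of them. Of the genes that rose at 72 h 30.5% also rose at 24 h, which is 60.7% of those that rose at 24 h. Of the genes that fell at 72 h 14.9% also fell at 24 h, which is 58.9% of those that fell at 24 h. Of the NF-κB inhibitors, *Nfkbia* changed by 2.80 at 72 h and 2.44 at 24 h, a difference of 0.36 ± 0.23 (adjusted p = 0.628), and *Tnfaip3* by 3.09 and 3.44, a difference of -0.35 ± 0.30 (adjusted p = 0.718). These p-values do not show that the effects were equal.

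The difference between both effects was tested directly and passed for 92 genes (0.458% of those tested), with 27 differences above 0 (0.135%) and 65 below 0 (0.324%), and 82 of the 92 were called at 72 h. The count was 25 to 136 when 1 library was left out, with the lowest values without the untreated 72 h library of replicate 2 (25) or 3 (26), and 40 with only the groups compared. Of these 82, 55 were lower with TNF at 72 h and 27 higher. *Ccl2* rose less at 72 h (1.53) than at 24 h (6.75), a difference of -5.23 ± 0.57 (adjusted p = 0.000255). It was at 26.0 ± 2.07 CPM (SD, n = 3 libraries) with TNF at 24 h and at 4.03 ± 0.313 CPM with TNF at 72 h. *Cxcl10* and *Cebpd* also rose less at 72 h, by 3.84 and 1.38 on the log2 scale (adjusted p = 0.0444 and 0.0232).

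For other genes that fell with TNF at 72 h the change was lower than at 24 h, with a difference that passed. *Chgb* differed by -4.82 at 72 h and -0.74 at 24 h (difference -4.08, adjusted p = 0.000911), and *Scara5*, which fell at both times, by -4.51 and -1.65 (difference -2.86, adjusted p = 0.000865). *A2m*, a broad protease inhibitor of the blood, was higher with TNF at 24 h (0.93) and lower at 72 h (-1.64, from 440, 557 and 498 CPM to 121, 185 and 175 CPM), a difference of -2.56 (adjusted p = 0.001). *Chrdl1*, an antagonist of BMP that astrocytes secrete, and *F13a1*, a clotting factor, turned in the same way (0.87 and 2.29 at 24 h, -0.94 and -2.57 at 72 h, adjusted p of the difference = 0.000255 and 0.00158). *Fgl2*, *Sel1l3*, *Scpep1* and *Atp6v0a2* fell at 72 h by 2.90, 1.75, 1.47 and 0.96 and did not pass at 24 h (adjusted p of the difference = 0.001, 0.00124, 0.00174 and 0.001).

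Among the astrocyte and metabolic genes the difference passed for *Slc14a1* (-3.01, adjusted p = 0.0212), *Clu* (-1.63, adjusted p = 0.00775), *Slc2a1* (-1.39, adjusted p = 0.0114) and *S100b* (-1.32, adjusted p = 0.0309). For *Gfap* it did not (-2.43 ± 0.77, adjusted p = 0.232). *Clu* was at 73.6 ± 6.34 CPM (SD, n = 3 libraries) in untreated cells at 24 h, 803 ± 129 CPM at 72 h and 511 ± 31.4 CPM at 1 week, and with TNF at 90.4 ± 9.33 CPM at 24 h and 318 ± 65.7 CPM at 72 h. *Slc2a1* was at 25 ± 1.77 CPM in untreated cells at 24 h and 77.5 ± 13.2 CPM at 72 h, and with TNF at 21.7 ± 3.83 CPM and 25.8 ± 5.23 CPM. Its mean with TNF at 72 h was near those of both 24 h groups. *S100b* was at 117 ± 2.58 CPM in NSPs, 66.8 ± 5.64 CPM at 24 h and 76.0 ± 19.4 CPM at 72 h without TNF, and at 24.4 ± 4.49 CPM at 72 h with it.

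*Gfap* was at 27.1 ± 13.7 CPM in NSPs, 899 ± 44.6 CPM at 24 h, 2432 ± 673 CPM at 72 h and 63.4 ± 15.9 CPM at 1 week without TNF, and at 977 ± 777 CPM at 24 h and 489 ± 461 CPM at 72 h with it. At 24 h the TNF libraries were far more spread than the untreated ones. *Scara5* was at 0.319 ± 0.222 CPM in NSPs, 7.51 ± 0.699 CPM at 24 h, 39.9 ± 6.43 CPM at 72 h and 21.2 ± 1.67 CPM at 1 week without TNF, and at 2.37 ± 0.487 and 1.75 ± 0.363 CPM at 24 h and 72 h with it. The untreated libraries at 72 h are shared by these comparisons of time and of TNF, so their values are given side by side and no relation between the comparisons was tested.

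**Figure D5:**
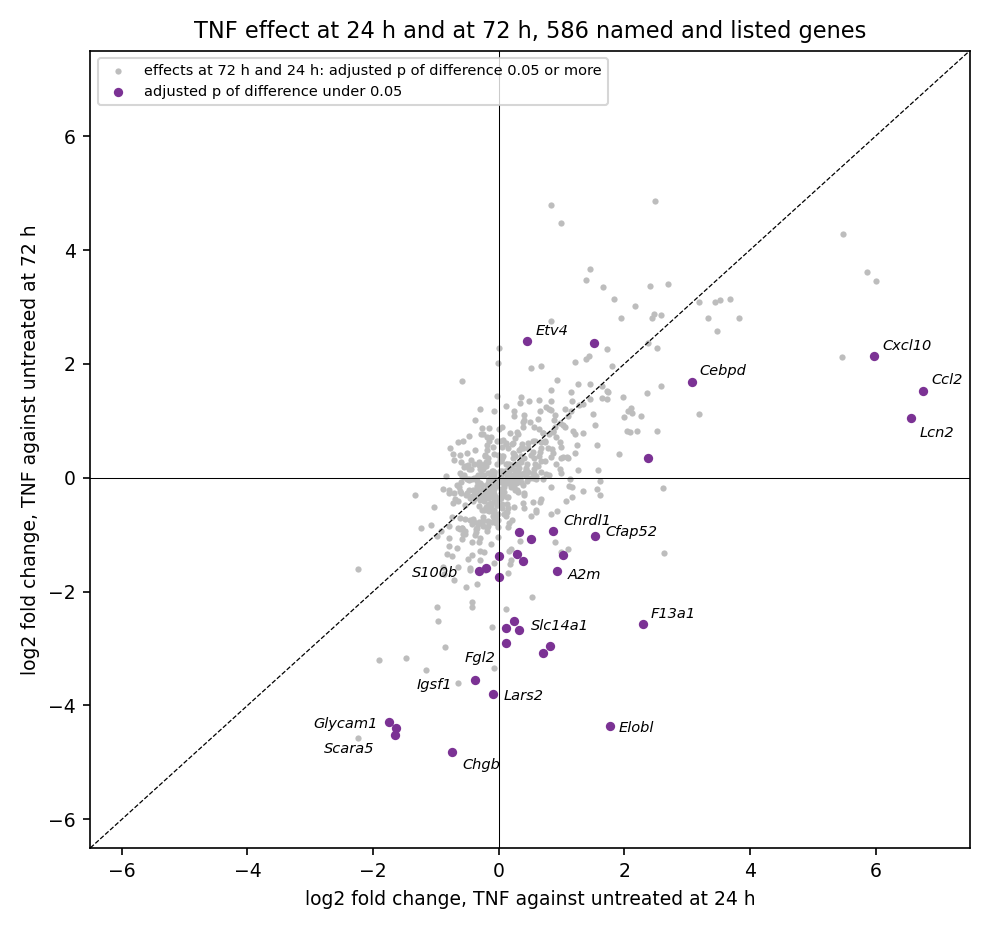
Log2 fold changes with TNF at 24 h (x axis) and at 72 h (y axis) for the 586 named and listed genes, with the dashed line marking equal effects. Purple points are the 33 genes whose effects differ between the times: *Ccl2*, *Lcn2* and *Cxcl10* lie far to the right and most of the others lie below 0 at 72 h.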

How the data were processed

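Total RNA of the 18 samples was depleted of ribosomal RNA and sequenced as paired ends from stranded libraries. The study gives RNA quality only as a wide range and not for each library. The part of RNA quality in the differences between libraries was not tested. Per the labels, reads were checked with FastQC, trimmed with Trim Galore, aligned with STAR to mm10 and handled with SAMtools, and the authors deposited a table of raw counts per gene from featureCounts, with 54838 genes. Tool versions, the annotation and the strand setting are not given in the sources used here. Of the gene IDs, 54809 were named from GENCODE M21 (GRCm38).

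Groups came from the labels. The 6 group means were fitted over all 18 libraries with edgeR 4.0.16 in R 4.3.3 (TMM scaling, filterByExpr, quasi-likelihood test), and p-values were adjusted over 20067 genes after Benjamini and Hochberg. The standard error is the size of the log2 fold change divided by the square root of F. Total counts of the 18 libraries ranged from 12509693 to 22549627. The procedure was tested on simulated data. Alternatives were DESeq2 1.42.0, RLE scaling, other filters, the replicate block, only the groups compared, other call rules and leaving out each library.

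The named genes were members of the gene lists, genes the study names, the 15 protein-coding genes that moved farthest up and down (mean of at least 1 CPM, no overlap), the 10 most abundant called genes in each direction and the 10 with the clearest difference from 24 h. *Reep1* and *CT010467.1* were named after their values were seen. The members and the lists were chosen with earlier results of these data known. Promoters came from RefSeq (GRCm38.p6). A few genes that meet these rules are not reported here.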

Additional observations from a re-analysis of the deposited data

Results flagged for a closer look

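The effect of TNF differed between 72 h and 24 h, by a test of the difference itself (edgeR's interaction contrast, adjusted p-value under 0.05), in 92 genes. This count was 25 or 26 without the untreated 72 h library of replicate 2 or 3, and 24 with a replicate block that leaves the third untreated library unpaired. The differences that follow are the log2 effect at 72 h minus that at 24 h. Among the inflammatory genes they were -5.23 for *Ccl2*, -3.84 for *Cxcl10*, -5.52 for *Lcn2*, -1.38 for *Cebpd* and -2.04 for *Ier3*. Among the astrocyte, reactive and metabolic genes they were -1.63 for *Clu*, -1.39 for *Slc2a1*, -3.01 for *Slc14a1*, -1.32 for *S100b*, -1.39 for *Slc30a1*, -1.60 for *Tm4sf1* and -2.77 for *Ggta1*.

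Among secreted and surface proteins they were -1.81 for *Chrdl1*, -2.86 for *Scara5*, -4.08 for *Chgb*, -3.03 for *Fgl2*, -2.56 for *A2m*, -4.86 for *F13a1*, -2.77 for *Glycam1* and -3.18 for *Igsf1*. The junction genes *Ocln* and *Cldn2* differed by -2.37 and -2.76. The remaining negative differences were -1.28 for *Atp6v0a2*, -1.75 for *Sel1l3*, -1.85 for *Scpep1*, -6.14 for *Elobl*, -3.77 for *Tmem266*, -2.55 for *Myh8*, -2.56 for *Cfap52*, -3.77 for *Got1l1* and -3.71 for *Lars2*. The effect was higher at 72 h for *Etv4* (1.94), a transcription factor of the ERK pathway, and for *Reep1* (0.85). Groups of 3 libraries are too small for a test of single outlying libraries.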

How the results depend on the processing

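For the TNF effect at 72 h, called in 1919 genes, requiring a log2 fold change of at least 1 gave 987 genes, an unadjusted p-value under 0.05 gave 5057, and leaving out 1 library gave 982 to 2849. DESeq2 called 2297 and RLE scaling 1913. TNF and untreated libraries of the same replicate number deviated from their 72 h group means with correlations of 0.105, -0.102 and 0.068. Of the 6 libraries 3 were closest to their own number. With 3 libraries in each group this cannot show whether the labels' replicate numbers pair the samples. The replicate block gave 1814 genes, and 986 with the third untreated library, whose column carries the number 4, left unpaired. For the 24 h effect (703 genes) the log2 threshold gave 373, the unadjusted p-value 2761, no filter on low counts 1374, the block 650 and leaving out 1 library 363 to 738, with 363 without each of the untreated libraries. For the difference between the times (92 genes) the unadjusted p-value gave 2018, DESeq2 236, at least 10 counts in every library 56, no filter 554, only the groups compared 40, the block 65, the block with that library unpaired 24 and leaving out 1 library 25 to 136. The 25 and 26 came without the untreated 72 h library of replicate 2 or 3, and 27, 36 and 28 without that of replicate 1, 2 or 3 at 24 h. Keeping genes with 5 or more counts over all libraries, an alternative chosen after seeing the data, gave 1735, 682 and 90. None of the 1919 calls changed sign when a library was left out. The genes that changed sign did not pass with all libraries, and *Serpina3n* passed without the TNF library of replicate 1 (-1.45): *Egr1* was at -0.11 and -0.17 under both blocks, and *Rela* at 0.01 and 0.00 with at least 10 counts and with only the groups compared. Without 1 library, *Ccnb1* ranged from -0.25 to 1.05, *Cebpb* from -0.23 to 0.29, *Egr1* from -0.80 to 0.38, *Rela* from -0.11 to 0.13, *Serpina3n* from -1.45 to 0.23, *Slc1a2* from -0.13 to 0.51, *Slc1a3* from -0.18 to 0.06, *Sox9* from -0.51 to 0.14 and *Vim* from -0.06 to 0.16. The cause of these changes was not tested. Genes with few counts limit the comparison: *Il6*, *Icam1* and *Tnf* could not be tested at this depth.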

Other observations

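The 4 gene groups that follow were drawn up after values of these libraries had been seen, so their counts describe the comparison and support nothing. Of 27 tested targets of p53, the transcription factor that responds to DNA damage, 14 rose at 72 h and none fell (51.9%, beside 4.35% of all tested genes that rose; median change 0.80), and 11 to 15 rose when 1 library was left out. *Mdm2*, whose product marks p53 for destruction, was at 119, 119 and 117 CPM without TNF and at 285, 248 and 227 CPM with it (1.10 ± 0.13, edgeR adjusted p = 2.94e-05). *Pidd1* went from 5.07, 5.95 and 4.46 CPM to 27.9, 16 and 19.7 CPM (2.04 ± 0.27, adjusted p = 5.69e-05), and *Eda2r*, a receptor of the TNF receptor family, from 113, 134 and 153 CPM to 286, 313 and 269 CPM (1.12 ± 0.16, adjusted p = 0.000125). In all 3 genes the TNF libraries lay above the untreated ones.

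Of 19 tested feedback and target genes of the ERK pathway, which carries growth factor signals, 11 rose and none fell (57.9%, beside the same 4.35%; median 0.90), and 7 to 10 rose when 1 library was left out. *Etv4* was at 2.72, 3.44 and 2.53 CPM without TNF and at 11.4, 15.3 and 19.3 CPM with it (2.40 ± 0.29, adjusted p = 2.31e-05), and *Etv5*, a related transcription factor, at 24.7, 20.7 and 23.9 CPM and at 58.0, 99.4 and 106 CPM (1.92 ± 0.26, adjusted p = 7.77e-05). *Spred2* passed in 2 of the 6 fits that left out 1 library and *Phlda1* in 3 (adjusted p = 0.155 and 0.133 without the TNF library of replicate 1).

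Of 9 tested small leucine-rich proteoglycans, matrix proteins that bind collagen and growth factors, 5 fell and none rose (55.6%, beside 5.21% of all tested genes that fell; median -1.29). *Fmod* was at 36.6, 39.9 and 35.7 CPM without TNF and at 6.09, 12.5 and 11.1 CPM with it (-1.92 ± 0.26, adjusted p = 8.27e-05). *Ogn* was at 199, 228 and 296 CPM and at 42.1, 127 and 96.4 CPM (-1.44 ± 0.28, adjusted p = 0.00246). In both the TNF library of replicate 1 was the lowest of all.

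Of 15 tested claudins and other tight junction genes 2 rose and 5 fell (46.7% called, beside 9.56% of all tested genes; median -0.16), and 1 or 2 rose and 2 to 5 fell when 1 library was left out. *Cldn1* was at 0.757, 1.29 and 1.87 CPM without TNF and at 9.41, 13.1 and 9.82 CPM with it (3.01 ± 0.37, adjusted p = 3.07e-05). *Cldn2* moved the other way, from 4.24, 5.77 and 6.27 CPM to 0.338, 1.39 and 0.876 CPM (-2.64 ± 0.41, adjusted p = 0.000311), as did *Cldn19* (-2.62 ± 0.40, adjusted p = 0.000311). *Jam2* and *Jam3* were lowest in the TNF library of replicate 1 and passed in 2 and 3 of the 6 fits that left out 1 library (adjusted p = 0.0875 and 0.158 without that library).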
